A study of Mus musculus with 2 samples.

Results

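The enzymes described here build and decorate the glycans of the cell surface: galactosyl-, N-acetylglucosaminyl-, N-acetylgalactosaminyl-, sialyl- and fucosyltransferases and the carbohydrate sulfotransferases. Genes were taken by symbol, as every gene of the B3galt, B3gnt, B4galt, B4galnt, St3gal, St6gal, St8sia, Galnt, Gcnt, Mgat, Chst and numbered Fut families with a probe set listed for it alone. This gave 99 of the 18193 genes on the array, with 196 probe sets; 1 of them, Fut4-ps1, is named as a pseudogene. For each gene the brightest probe set, by its mean log2 value on the 2 arrays, stands for the gene. Expression had been measured in NK1.1+ CD3- liver cells of B6 mice, wild-type and naive, sorted into DX5- NK and DX5+ NK cells, with 1 Affymetrix array for each population. DX5 is an antibody against the integrin alpha 2 chain (CD49b). The labels name no agent or engineered allele for either population, and neither the age of the mice nor the number behind an array is given in the sources used here. With n = 1 in each population no difference has a spread between samples, so no test was made, no p-value is given, and every fold describes these 2 arrays. In sorted bulk RNA a lower intensity from fewer cells that use a gene cannot be told apart from less of its RNA in every cell.

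Glycans are assembled in the Golgi by enzymes that each add 1 sugar or sulfate in a fixed linkage, so a chain depends on which enzymes a cell makes. Mucin-type O-glycans start with N-acetylgalactosamine on serine or threonine, N-glycans are trimmed and then branched into antennae, and both can carry chains of galactose and N-acetylglucosamine that are capped with sialic acid, fucose or sulfate. In lymphocytes such caps form ligands for selectins and siglecs and set how galectins bind the surface.

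Values are MAS5 intensities, linear units with 1 value per probe set and array. The detection limit was the 95th percentile of 148 probe sets from families that lymphocytes are not known for, such as olfactory receptors. It was 90.9 for DX5- cells and 107 for DX5+ cells. A gene above its limit on at least 1 array is called detected. Where a value was under the limit, the limit stood in its place and the fold is written as "at least". Of the 99 genes, 43 exceeded both limits, 7 that of DX5- cells alone, 0 that of DX5+ cells alone, and 49 neither. The limit of DX5- cells is the lower one, and over all genes 653 exceeded it alone against 471 for DX5+ cells. With limits of 75.2 and 79.7, obtained by leaving out the 3 Crybg genes, 54 genes were detected, 5 of them in DX5- cells alone and 3 in DX5+ cells alone, so the split of 7 to 0 depends on the limit; the counts past 2-fold were the same.

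Of the 50 detected genes 8 passed 2-fold, 4 upward in DX5- cells and 4 downward. Among all 9970 detected genes the shares were 3.57% upward, 5.52% downward and 9.09% in either direction. The median log2 ratio, DX5- minus DX5+, was 0.044 over the 50 genes and -0.0043 over all detected genes. The 4 higher genes were B3galt5, Gcnt2, St6galnac3 and Fut8, and the 4 lower genes were Galnt3, B3gnt5, B3gnt7 and St3gal1. A further 30 genes lay within 1.5-fold, 60.0% of the 50 beside 75.8% of all detected genes. Just outside the 2-fold line were St3gal3 and St8sia4 on the higher side (log2 ratios 0.95 and 0.89) and B4galt5 and B4galt7 on the lower side (-0.90 and -0.87). Just inside it were Fut8 (1.28) and St3gal1 (-1.11). When arrays were centred on their medians, which raised the median of all genes to 0.12, the split of higher to lower genes was 7 to 3. With spike-in scaling, which raised it to 0.20, the split was 9 to 3, and with quantile normalization it was 5 to 3. Over all detected genes the split was 356 to 550 as deposited and moved toward higher in the same settings. It was 506 to 404 with median centring, 643 to 358 with spike-in scaling and 407 to 478 with quantile normalization. Probe sets of the same gene gave an error for the probes only, from genes with several probe sets above both limits. Over 4091 such genes their log2 ratios had an SD of 0.32, and over 18 of these enzyme genes an SD of 0.23. Of the 8 genes past 2-fold only Gcnt2 is among the 18, so the SD of 0.23 does not cover the others.

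**Figure D1:**
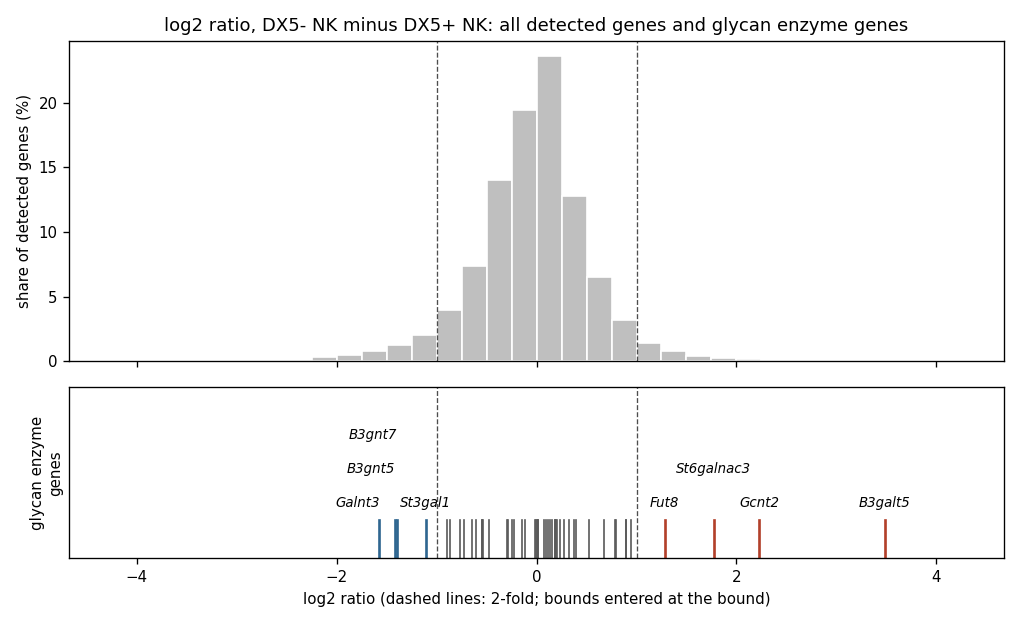
The upper panel plots the share of all detected genes (%) by log2 ratio, DX5- NK minus DX5+ NK, and the lower panel marks each detected glycan enzyme gene by a vertical line. Dashed lines stand at 2-fold; 4 genes lie beyond them on each side, with B3galt5 at 3.48 and Galnt3 at -1.57.

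The start regions of the genes farthest apart in each direction are shown as sequence context; which start these cells use was not analysed here, and the arrays do not measure the regions. They are RefSeq promoter windows of GRCm38.p6, from 250 bases before to 50 after a gene's start; 7 of the 8 genes past 2-fold matched, with 14 starts. Of genes with several starts the most upstream is printed. Capitals mark CG dinucleotides.
B3galt5, chr16:96235551-96235850, plus strand: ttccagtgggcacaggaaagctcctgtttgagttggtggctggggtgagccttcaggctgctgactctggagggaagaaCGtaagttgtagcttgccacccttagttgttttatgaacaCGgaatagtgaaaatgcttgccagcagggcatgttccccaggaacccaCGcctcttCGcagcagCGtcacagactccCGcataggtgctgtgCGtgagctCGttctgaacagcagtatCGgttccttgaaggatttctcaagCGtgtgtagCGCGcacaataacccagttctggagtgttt
Gcnt2, chr13:40859518-40859817, plus strand: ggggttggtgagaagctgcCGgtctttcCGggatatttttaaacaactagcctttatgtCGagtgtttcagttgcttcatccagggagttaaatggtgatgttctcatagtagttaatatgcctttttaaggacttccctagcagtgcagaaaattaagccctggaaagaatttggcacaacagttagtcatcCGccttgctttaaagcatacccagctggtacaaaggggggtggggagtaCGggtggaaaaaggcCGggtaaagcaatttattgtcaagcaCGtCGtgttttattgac
Galnt3, chr2:66124744-66125043, minus strand: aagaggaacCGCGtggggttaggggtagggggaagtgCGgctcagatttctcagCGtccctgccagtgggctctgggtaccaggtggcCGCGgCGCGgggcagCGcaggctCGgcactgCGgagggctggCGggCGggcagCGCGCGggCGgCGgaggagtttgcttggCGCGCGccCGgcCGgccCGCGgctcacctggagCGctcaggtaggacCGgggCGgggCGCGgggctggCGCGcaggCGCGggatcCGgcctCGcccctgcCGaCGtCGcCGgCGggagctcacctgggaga
B3gnt5, chr16:19759984-19760283, plus strand: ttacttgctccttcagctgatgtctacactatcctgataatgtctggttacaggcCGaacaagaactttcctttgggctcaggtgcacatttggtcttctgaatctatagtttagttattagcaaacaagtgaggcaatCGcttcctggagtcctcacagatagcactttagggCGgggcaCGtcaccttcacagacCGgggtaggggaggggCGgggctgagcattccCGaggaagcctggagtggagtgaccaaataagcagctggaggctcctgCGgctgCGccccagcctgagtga
The windows differ in CG content. Galnt3 holds 41 CG dinucleotides, B3galt5 12, B3gnt5 9 and Gcnt2 8, beside a median of 7 and quartiles of 3 and 20 over 32851 windows of the same length. The other starts of Gcnt2 hold 6 and 13, and those of B3galt5 6 and 24. Both strands of the 14 windows were searched for 5 motifs. The RUNX core TGTGGT was found in 1, a downstream start of B3galt5, and in 16.8% of all windows. The ETS motif CCGGAAG was found in 1, the first start of Fut8, and in 8.86% of all. The T-box motif GGTGTGA (3.98% of all windows), the AP-1 motif TGANTCA (7.81%) and TATAAA (13.6%) were in 0 of the 14. No motif overlapped another in these windows, and a match of letters describes the sequence only.

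Enzymes that start O-glycans, the polypeptide N-acetylgalactosaminyltransferases, were split around equality. Of 18 Galnt genes 9 were detected, 8 of them within 2-fold, with a median log2 ratio of -0.23 (-0.078 with median centring and 0.00090 with spike-in scaling, which also put 1 and 2 genes past 2-fold upward). Galnt3, known for glycosylating the phosphate hormone FGF23, read 108 in DX5- and 322 in DX5+ cells, 2.97-fold lower in DX5- cells. The DX5- value was just above its limit. A second Galnt3 probe set read 63.7 and 314.5, at least 3.46-fold lower, so both were higher in DX5+ cells. The remaining one read 23.6 and 48.4, under both limits.

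Galnt2 read 3129.8 in DX5- and 5335 in DX5+ cells, 1.70-fold lower in DX5- cells. Its 3 probe sets gave log2 ratios from -0.77 to -0.66. Galnt7, which prefers peptides that already carry N-acetylgalactosamine, read 688 and 1079, with 3 probe sets from -0.72 to -0.18. On the other side, Galnt12 read 478 and 258, Galnt10 323 and 188, and Galnt1 2073 and 1295. The 2 probe sets of Galnt1 were over 1.5-fold apart, with log2 ratios of 0.68 and 0.070, so its difference rests on 1 of them. Galnt4, Galnt6 and Galnt11 lay within 1.2-fold. Of the 9 undetected genes Galnt16 came nearest to a limit, with 72.8 and 94.6.

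Branching by beta-1,6-linked N-acetylglucosamine differed in 1 of 2 detected genes. Gcnt2 encodes the I-branching enzyme, which turns linear chains into the branched form known as blood group I. It read 12249.8 in DX5- and 2613 in DX5+ cells, 4.69-fold higher in DX5- cells and position 48 from the top among 9970 detected genes. Gcnt2 had 8 probe sets, 6 of them above both limits, and all 6 were higher in DX5- cells, from 3.21-fold to 5.57-fold. The pairs read 494.5 and 116, 1901 and 402, 2429 and 757, 554 and 120.4, and 719 and 129 beside the pair above. The other 2 probe sets read 3.6 and 3.3 and 9.0 and 19.2, under the limits. RefSeq lists IGnTA, IGnTB and IGnTC as other names of the gene; which form a probe set reads was not analysed here. Gcnt1, which makes the core 2 branch that carries selectin ligands on O-glycans, read 852 and 857, with log2 ratios of -0.0079 and 0.22 from its 2 probe sets. Gcnt3 and Gcnt7 were under the limits.

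**Figure D2:**
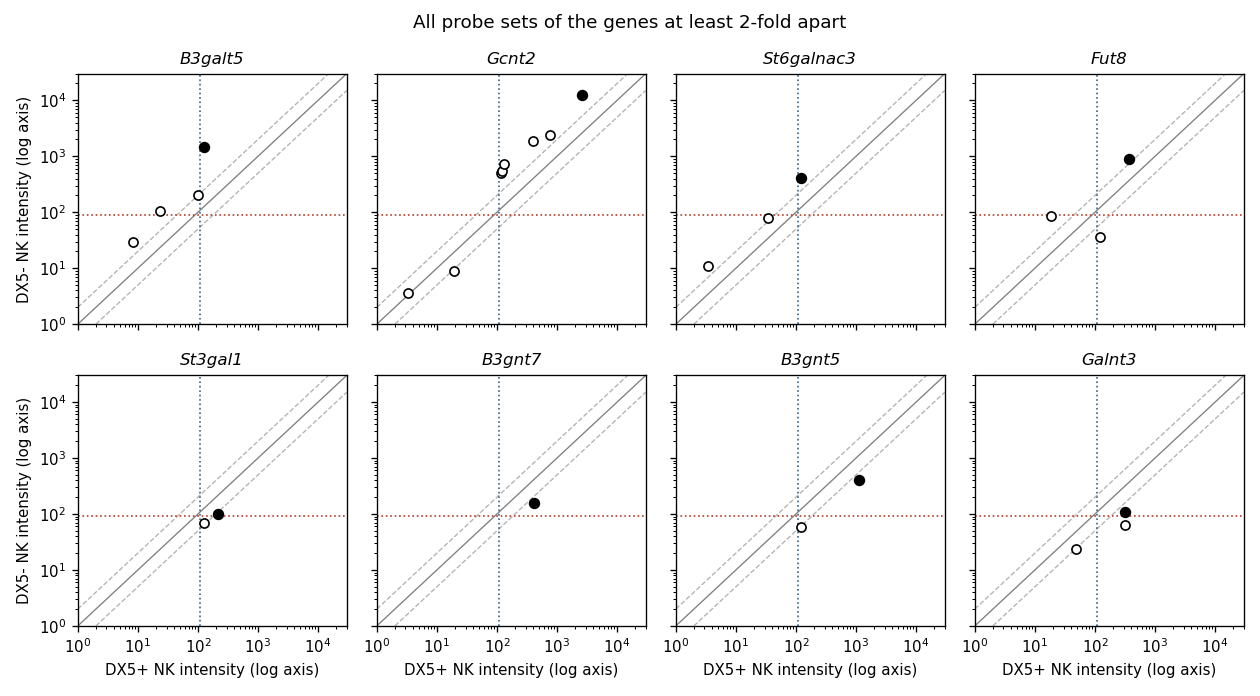
Each panel plots every probe set of 1 gene, DX5- NK intensity against DX5+ NK intensity on log axes; filled points are the probe sets that represent the gene and dotted lines the detection limits. The solid line is equality and the dashed lines 2-fold. The 6 Gcnt2 probe sets above both limits lie together above the upper dashed line, while B3galt5, St6galnac3 and Fut8 pass it above both limits with 1 probe set each.

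Genes for beta-1,3 transfer of galactose and N-acetylglucosamine had the widest range, from -1.42 to 3.48 in log2 ratio. Of 14 genes 7 were detected, with 1 past 2-fold upward in DX5- cells and 2 downward. B3galt5 adds galactose in beta-1,3 linkage to N-acetylglucosamine, which makes the type 1 chains that carry Lewis a and Lewis b. It read 1439.8 in DX5- and 129 in DX5+ cells, 11.2-fold higher in DX5- cells and position 5 from the top among 9970 genes. A second probe set read 203 and 100.8, with the DX5+ value under its limit, and was also higher in DX5- cells. The other 2 give no direction: 1 read 107 and 23.4, above the DX5- limit but short of the DX5+ limit, and 1 read 29.7 and 8.4, under both. The size of the difference thus comes from 1 probe set. The mean over probe sets was under the DX5+ limit, so that setting gave a bound of at least 1.63-fold.

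B3gnt5 and B3gnt7 went the other way. B3gnt5 makes lactotriaosylceramide, the first step of lacto- and neolacto-series glycolipids, and read 413 and 1103, 2.67-fold lower in DX5- cells. Its second probe set read 57.8 and 119.6, at least 1.32-fold lower. B3gnt7, an enzyme of keratan sulfate chains, read 158 and 417, 2.63-fold lower, with 1 probe set. B3gnt2, the main enzyme of poly-N-acetyllactosamine, read 2435 and 2980.5, and its 2 probe sets lay on either side of equality. B3galt4, which makes the ganglioside GM1, read 185.5 and 226. B3galt6 and B3gntl1 were detected in DX5- cells only, at 108 and 129.5; in DX5+ cells they read 72.5 and 30.5, and the bounds were at least 1.01-fold and 1.21-fold.

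Beta-1,4-galactosyl- and N-acetylgalactosaminyltransferases were all within 2-fold where detected (7 of 10 genes, median 0.15). B4galt1, the general lactosamine enzyme, read 7744 and 7072. B4galnt1, which makes the gangliosides GM2 and GD2, read 4645 and 4173, and B4galt3 905 and 798. B4galnt4 (134 and 93.1) and B4galt6 (123 and 104) exceeded the limit in DX5- cells only. The ones farthest apart were lower in DX5- cells. B4galt5, a lactosylceramide synthase, read 1518 and 2823, 1.86-fold lower, and passed 2-fold downward with the mean over probe sets. That mean takes in a second probe set at 56.2 and 124.1, whose DX5- value was under the limit. By itself the second probe set was at least 1.37-fold lower. B4galt7, which adds the first galactose of the proteoglycan linker, read 569.7 and 1039, 1.82-fold lower, and its 2 probe sets gave -0.87 and -0.73.

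N-glycan antenna enzymes were within 2-fold in 5 of 5 detected genes of 10 on the array, with a median of -0.12 that turned to 0.031 with median centring and 0.11 with spike-in scaling; the latter put 1 gene past 2-fold upward. Mgat1, which opens the way to hybrid and complex N-glycans, read 867 and 1321, 1.52-fold lower in DX5- cells. Mgat2, which acts on the other arm, read 2296 and 2125. Mgat4a, which starts a beta-1,4 branch, read 2686 and 1545, 1.74-fold higher, and its second probe set gave 1.57-fold. Mgat5, which starts the beta-1,6 branch that extends into long lactosamine chains, read 1759 and 2562, 1.46-fold lower, with probe sets at -0.54 and -0.50. Mgat4a and Mgat5 thus lay on opposite sides of equality, each with agreeing probe sets. Mgat4b read 669 and 726, and Mgat3, the bisecting enzyme, was under the limits at 51.3 and 12.1.

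**Figure D3:**
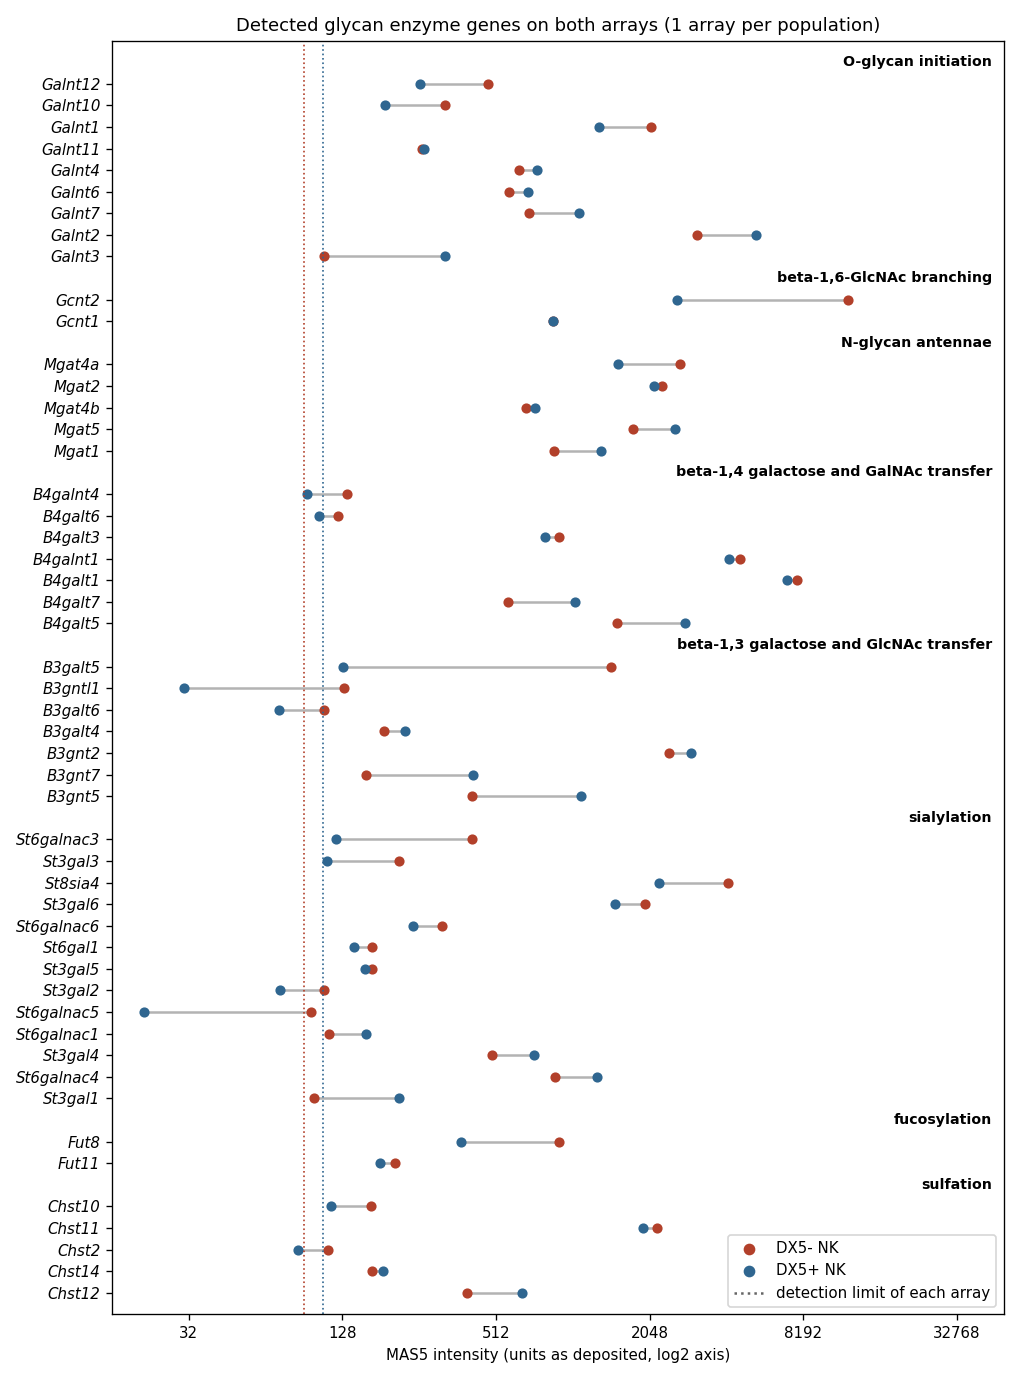
Each row is 1 detected gene, grouped by role, with its MAS5 intensity on the DX5- NK array (red) and the DX5+ NK array (blue) on a log2 axis; there is 1 array per population, so points have no error bar. Dotted lines are the detection limits, 90.9 and 107, and a point left of its own line is under the limit. The longest gap between 2 detected points belongs to B3galt5, 1439.8 against 129.

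Sialyltransferases formed the group with most detected genes, 13 of 20, with 1 past 2-fold in each direction and a median of 0.091. That balance depended on the scaling: median centring and spike-in scaling each gave 3 upward and 0 downward (medians 0.24 and 0.32), and quantile and intensity-dependent centring 2 and 0. St6galnac3, which adds alpha-2,6-linked sialic acid to N-acetylgalactosamine of gangliosides and O-glycans, read 414 in DX5- and 121 in DX5+ cells, 3.41-fold higher in DX5- cells. Its other 2 probe sets were under the limits; the brighter of them read 79.2 and 34.9. St3gal1, which caps the core 1 O-glycan with alpha-2,3-linked sialic acid, read 99.2 and 214, 2.16-fold lower in DX5- cells. Its second probe set read 69.8 and 124.5, at least 1.37-fold lower. The DX5- value of St3gal1 was close to the limit, and with median centring its log2 ratio was -0.96, short of 2-fold.

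St8sia4, a polysialyltransferase, read 4133.5 and 2229, 1.85-fold higher in DX5- cells, and its 2 probe sets gave 1.85-fold and 1.84-fold. St3gal3 read 214 and 111, 1.93-fold higher, with the DX5+ value just above the limit. Among enzymes that cap lactosamine with alpha-2,3-linked sialic acid, St3gal4 read 495.5 and 720.1 and St3gal6 1966 and 1499. St3gal6 had 4 probe sets above both limits, from -0.16 to 0.71 in log2 ratio, so its direction depended on the probe set. St6gal1, which makes the alpha-2,6-linked ligand of CD22 on N-glycans, read 168 and 142, and St3gal5, the GM3 synthase, 167 and 157. St6galnac4 read 867.5 and 1270.2, 1.46-fold lower, with probe sets at -0.62 and -0.55. St6galnac6 read 314 and 243, St6galnac1 113.5 and 158, and St3gal2 108 and 72.7. St6galnac5, at 96.1 and 21.3, was the detected gene nearest to the limit of DX5- cells. St8sia1, the GD3 synthase, was under both limits at 4.2 and 101.7, and St8sia6 at 87.5 and 59.1.

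Of 8 fucosyltransferase genes 2 were detected. Fut8, the enzyme that adds core fucose to N-glycans, read 906 in DX5- and 372 in DX5+ cells, 2.43-fold higher in DX5- cells. Its other probe sets did not go the same way throughout. One read 86.4 and 18.5, under both limits, and one read 35.8 and 119.9, lower in DX5- cells by at least 1.32-fold. The mean over its probe sets was under the DX5+ limit and gave at least 1.32-fold higher. Fut11 read 206 and 179, and its 2 probe sets lay on either side of equality. Fut4 and Fut7, which complete sialyl Lewis x in leukocytes, were under both limits, Fut4 at 32.7 and 32.7 and Fut7 at 28.8 and 39.1.

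Carbohydrate sulfotransferases were within 2-fold in 5 of 5 detected genes of 14 on the array. Chst11 and Chst12 add sulfate to the 4 position of chondroitin. Chst11 read 2197 and 1934, with probe sets at 0.18 and 0.20, and Chst12 read 392.5 and 647.5, 1.65-fold lower in DX5- cells. Chst14, the dermatan enzyme, read 167 and 185, and Chst10, which makes the HNK-1 epitope, 166 and 116. Chst2, which sulfates N-acetylglucosamine of selectin ligands, read 112.4 and 85.6 and was detected in DX5- cells only.

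Genes were also grouped by product, across the families. Of 12 genes of selectin ligands 6 were detected and 0 passed 2-fold (median 0.10), but 1 did so upward under each of the 4 other scalings, with medians up to 0.33. Of 11 glycolipid genes 9 were detected, with St6galnac3 higher, B3gnt5 lower and a median of 0.091. Of 9 genes of the proteoglycan linker and of chondroitin or dermatan sulfate 5 were detected and 0 passed 2-fold (median -0.15, which became 0.0024 with median centring and 0.081 with spike-in scaling).

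Genes outside these families that supply or share their pathway were read beside them. Of 25 detected genes for activated sugars, activated sulfate and their transport, 0 passed 2-fold and the median was 0.020; median centring gave 1 upward (median 0.17) and spike-in scaling 2 (median 0.25). Gmppa was the farthest on the higher side, at 1.86-fold, and Cmah, the enzyme that turns one sialic acid form into another, the farthest on the lower side, at 1.72-fold. Of 17 detected genes for other core steps 2 passed 2-fold in each direction. The alpha-mannosidases that trim N-glycans before Mgat2 acts were on opposite sides. Man2a1 read 337 and 927, 2.75-fold lower in DX5- cells, and Man2a2 read 1245 and 445, 2.80-fold higher. Pofut1, which puts fucose on Notch receptors, read 390 and 153, 2.54-fold higher, and Lfng, the Fringe enzyme that extends that fucose, 392 and 830.5, 2.12-fold lower. With median centring or spike-in scaling 1 gene of these steps, not 2, passed downward, and with the mean over probe sets 1 passed in each direction. C1galt1, which makes core 1 O-glycans, and its chaperone gene C1galt1c1 read 977 and 854.5 and 889 and 858.

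Among 23 detected heparan and chondroitin chain genes 1 passed 2-fold in each direction. Both encode heparan 3-O-sulfotransferases. Hs3st2 read 253 and 78.3, at least 2.36-fold higher in DX5-, and Hs3st1 read 105.8 and 222, 2.10-fold lower. Neither call held throughout: 0 genes of the list passed upward with the 99th percentile limit, with the mean over probe sets or without the less specific probe sets (suffix _x_at or _s_at), and 0 downward with that limit, with an offset of 32 or under any of the 4 other scalings. The 99th percentile limit of DX5- cells, 341, is above the readings of both genes on both arrays, so neither could pass there. With median centring or spike-in scaling 2 passed upward. Of 8 detected genes of glycan removal 1 passed, Galns, a lysosomal sulfatase, with 499 and 193, 2.58-fold higher, and with the mean over probe sets 0 passed upward and 1 downward. Of 12 detected glycan carriers 0 passed 2-fold and 11 lay below equality (median -0.40), beside 5017 of all 9970 detected genes below it. With spike-in scaling the median of the carriers was -0.17, beside 0.20 over all detected genes. Spn, the CD43 gene, read 4594.5 and 7693, and Selplg, the gene of the P-selectin ligand PSGL-1, 5410.5 and 7737.5.

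Of 11 detected glycan-binding proteins 3 were at least 2-fold lower in DX5- cells and 0 higher. With the limit raised to the 99th percentile (341 for DX5- and 159 for DX5+ cells), 8 were detected and 0 passed. At a DX5- limit of 341 the DX5+ readings of the 3 are too low to pass, whatever their DX5- values. Selp (P-selectin) read 99.5 and 368, Sele (E-selectin) 37.6 and 329 and Siglech 130.0 and 441. The galectin genes Lgals1 and Lgals3 were 1.85-fold and 1.88-fold lower. P-selectin is also a platelet and endothelial gene, and E-selectin an endothelial one. Of 9 endothelial markers 4 were detected and 0 passed 2-fold (sums 1375 and 1519.7); Cdh5, Stab1, Lyve1, Clec4g and Ptprb were under both limits. Of 8 platelet markers 8 were detected and 7 passed 2-fold downward in DX5- cells, with summed intensities of 1222 and 6052; the part of these cells in the results for Selp and Sele was not tested. Siglech is itself a marker of plasmacytoid dendritic cells. Of 9 dendritic cell markers 8 were detected, and 2 of them, Siglech itself and Ccr9, were at least 2-fold lower (sums 8755 and 10914). Of the 8, 6 lay below equality and 2 above it, Itgax (5739 and 3971) and Bst2 (805 and 694). The part of these cells was not tested.

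Markers of other cells differed between the arrays. Of the NK markers 11 of 11 on the array were detected, 2 of them (Eomes and Prf1) at least 2-fold lower in DX5- cells, with summed intensities of 157786 and 177020.5. Itga2, the DX5 target, read 29.0 and 105.2, under both limits; at the limits without the Crybg genes it was above that of DX5+ cells only, the direction of the sort. Of 7 markers of liver-resident NK cells and ILC1 6 passed 2-fold upward in DX5- cells, and of 6 detected markers of circulating NK cells 6 passed it downward. Of 12 T cell markers 9 were detected and 6 were at least 2-fold higher in DX5- cells (sums 29337 and 12220); Cd4, Cd8b1 and Themis were under both limits. Cd3g read 14036 and 1072 and Cd3d 2607 and 782, although both populations had been gated as CD3-. Of 14 macrophage markers 6 were detected and 5 were at least 2-fold lower (sums 1568 and 6200). C1qa, C1qb, C1qc, Clec4f, Timd4, Cd163, Marco and Vsig4 were under both limits. Of 7 neutrophil markers 6 were detected, with 3 (S100a8, S100a9 and Ngp) past 2-fold downward in DX5- cells and Mmp9 past it upward, at 932 and 197 (sums 4668 and 9709); Cxcr2 was under both limits. Of 4 detected basophil and mast cell markers 1 passed downward (sums 1989 and 2615), and of 4 detected hepatocyte markers 1 (sums 1397 and 2215). Detected platelet, macrophage, circulating NK and most neutrophil markers had the direction of the 4 lower enzyme genes. Markers of liver-resident NK cells and ILC1 had that of the 4 higher ones. So had 8 of the 9 detected T cell markers, with Cd28 (7668 and 8442) the other way. The enzyme genes were split by their direction between the same 2 arrays, so any marker that differs shares the direction of 1 side. The part of any of these cells in the results was not tested. The 18 hybridisation spike-ins had a median log2 ratio of -0.22 and were lower on the DX5- array in 18 of 18. The 3' to 5' ratio of the actin control was 1.73 and 1.62.

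**Figure D4:**
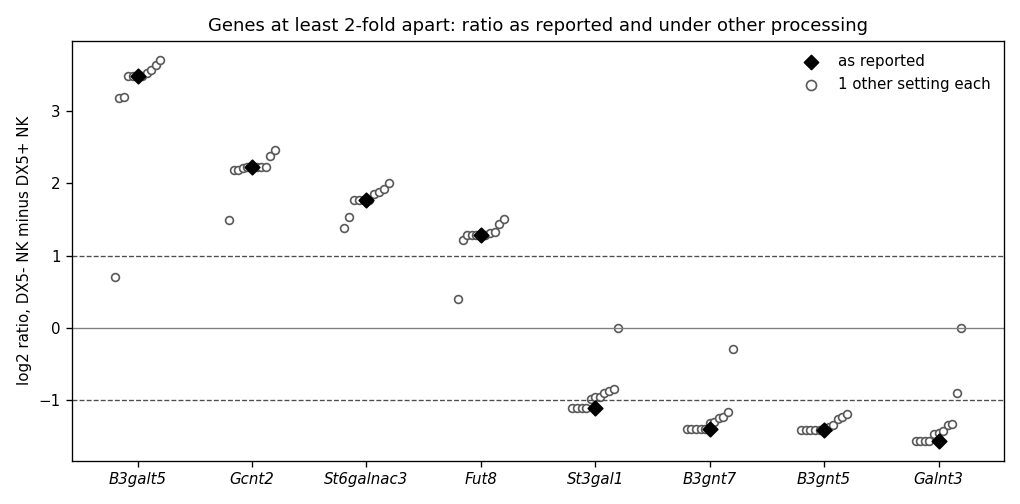
For each gene at least 2-fold apart the diamond is the log2 ratio as reported and each open circle the ratio under 1 other processing setting; dashed lines mark 2-fold. Gcnt2 and B3gnt5 stay beyond the line in 11 of 11 other settings and St6galnac3 in 10 of 10, whereas St3gal1 does so in 4 of 11. The 4 settings of St3gal1 left the ratio of every gene shown unchanged, so they could not move a gene across the line. They were the limit at the array median, no limit, leaving out less specific probe sets and the limit without the Crybg genes.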

How the data were processed

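Expression arrays of DX5- NK and DX5+ NK cells were read, 1 per population. The authors deposited 1 linear intensity per probe set and array, made with MAS5 per the submitters' processing notes; the sources used here do not give how it was set. MAS5 scales each array by 1 factor. The number of arrays, 2, limits precision.

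Of 45101 probe sets, 34958 had 1 gene symbol in the platform annotation (13 of them controls, left out), 932 had several and 9211 are unnamed here. Intensities were taken to log2 with no offset in Python 3.11.15 (numpy 2.4.6, pandas 2.3.3, statsmodels 0.14.6), and steps were tested on simulated data. A bound on the wrong side was set to equality. The limit's probe sets were olfactory, vomeronasal, taste, keratin-associated, crystallin and opsin genes. Crybg1, Crybg2 and Crybg3 among them are not lens crystallins and make the limit stricter.

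Genes were named if past or near 2-fold or a limit, if their probe sets disagreed, if brightest in their role list or, outside the families, if past 2-fold; other named genes were chosen after their values were seen. No fold is taken between probe sets; intensity ranks served only to choose a gene's probe set and names. Genes, lists and settings were chosen with earlier results of these data known. Alternatives covered the limit, scaling, probe set, offset and fold.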

Additional observations from a re-analysis of the deposited data

How the results depend on the processing

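The count of enzyme genes at least 2-fold higher in DX5- cells was 4. It was 22 with no detection limit, 7 with median centring, 9 with spike-in scaling, 1 with the mean over probe sets (38 genes detected) and 10 at 1.5-fold. Over all genes the count higher was 356 of 9970, and 1890 of 18193 with no limit. With median centring it was 506 of 9970 and with spike-in scaling 643 of 9970. With the mean over probe sets it was 285 of 8759, and at 1.5-fold 1041 of 9970. The count of enzyme genes at least 2-fold lower was 4. It was 1 under a 99th percentile limit, 14 with no limit and 10 at 1.5-fold. Over all genes the count lower was 550 of 9970, 2840 of 18193 with no limit and 1373 of 9970 at 1.5-fold. With no limit 28 further enzyme genes passed, each with at least 1 value under its limit. The stricter limit, at the 99th percentile, was 341 for DX5- cells, above the DX5- readings of Galnt3, B3gnt7 and St3gal1, whose ratios then became bounds. For DX5+ cells it was 159. Over all genes it took the count lower from 550 to 270 and the count higher from 356 to 298. Other settings kept both counts within 1.5 times. The median log2 ratio, 0.044, ranged from -0.13 with the mean over probe sets to 0.27 with spike-in scaling.

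No setting reversed any of the 8 genes past 2-fold, but only the mean over probe sets could have done so. A changed limit puts a bound on the wrong side at equality, and an offset keeps the direction. The other scalings shifted ratios too little to reverse a gene past 2-fold. Galnt3 and St3gal1 came to 0 under the stricter limit. The mean over probe sets fell under the limit of 1 array for B3galt5, Fut8 and Galnt3, so their ratios there are bounds. In log2 they were at least 0.71 for B3galt5, at least 0.40 for Fut8 and -0.90 or lower for Galnt3. Whether these genes passed 2-fold in that setting is thus not settled. St6galnac3 had no value, as it fell under both limits. St3gal1 stayed past 2-fold in 4 of 11 other settings, all of which left its ratio unchanged. The limit without the Crybg genes was added after the data were seen. No paired analysis was possible because each population has 1 array, and none could be left out.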

Other observations

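The nearest protein-coding neighbours of the 8 enzyme genes past 2-fold, 2 on each side in the RefSeq gene order of GRCm38.p6, were read from the same arrays. Of 28 neighbours on the array 13 were detected and 3 were at least 2-fold apart, beside 9.09% of all detected genes. Each of the 3 is the immediate neighbour of an enzyme gene and went in that gene's direction. Igsf5, a junctional adhesion molecule gene next to B3galt5, read 6266 in DX5- and 1179 in DX5+ cells, 5.31-fold higher in DX5- cells. Klhl6, next to B3gnt5, read 2576 and 6074, 2.36-fold lower. Ndrg1, next to St3gal1, read 366.5 and 1918, 5.23-fold lower. The gene models of these pairs do not overlap in RefSeq.

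Neighbours on the other side differed less or were not detected. Sh3bgr, the other neighbour of B3galt5, was under both limits at 24.5 and 23.7, and Zfat, the other neighbour of St3gal1, read 125.8 and 125.6; Lamp3, beside B3gnt5, was not analysed here. On either side of Gcnt2, Tfap2a was under the limits at 82.0 and 95.3, and Pak1ip1 read 3193 and 3832. Max, beside Fut8, read 2782 and 2376.5, and Ncl, beside B3gnt7, read 15023 and 15793. Ttc21b, beside Galnt3, read 112 and 79.3, at least 1.05-fold higher in DX5- cells, where Galnt3 was lower. St6galnac3 lies next to St6galnac5, which read 96.1 and 21.3, above the limit in DX5- cells only. These neighbours were listed by position, and the pairs were singled out after their values were seen, with no test.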
